A study of Mus musculus with 96 samples.

Results

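Heat shock proteins and co-chaperones, the genes whose products fold, hold and refold other proteins, were followed through the striatum of an Htt knock-in series. They were taken by symbol: Hspa, Hspb, Hsp90, Hspd, Hspe, Hsph, Dnaja, Dnajb and Dnajc genes, and Cct and Bag genes whose prefix is followed by a number. Of 39179 gene identifiers in the count table, 14676 had a mean of at least 1 CPM (counts scaled to library size) over the 96 libraries, and 75 of these carried such a symbol. A further 13 symbols of the rule lay under that minimum, and 11 symbols ending in -ps were left out. The lowest gene inside the minimum was Hspa1b at a mean of 2.90 CPM, and the highest outside it was Dnajb3 at 0.851 CPM. The 75 genes comprised 13 of the Hsp70 and Hsp110 family, 3 Hsp90 genes, both mitochondrial chaperonin genes, 4 small heat shock proteins, 7 subunits of the cytosolic chaperonin CCT, 4 Dnaja, 9 Dnajb, 25 Dnajc and 6 Bag genes. Another 2, Hspbp1 and Hspbap1, share only the Hspb prefix with the small heat shock proteins. Hspbp1 is also on the list of Hsp90 and Hsp70 partners used below. Hspb11, a ciliary transport protein, was counted among the 4 small heat shock proteins by its name.

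Hsp70 proteins bind exposed stretches of unfolded chains, J-domain proteins (Dnaja, Dnajb and Dnajc) bring them clients and start their ATP cycle, and Bag proteins and Hsp110 release the bound nucleotide. Hsp90 takes over late-stage clients, the CCT ring folds actin and tubulin in a closed chamber, and small heat shock proteins hold unfolded chains without ATP. Heat shock factor 1 (Hsf1) switches on the inducible members when unfolded protein accumulates, and these chaperones are known to slow the aggregation of polyglutamine proteins such as mutant huntingtin in cell and animal models.

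The mice were C57BL/6 animals with 1 knock-in Htt allele whose CAG length label was Q20, Q50, Q92 or Q140, or wild types, killed at 6 or 10 months of age. Each of the 12 groups of age and genotype or cohort held 8 libraries, 4 of females and 4 of males, each labelled as a separate sample. Wild types came in cohorts housed with Q20 or with Q50 mice, and Q92 and Q140 mice were housed with their own genotype. Q92 and Q140 were therefore compared with both wild-type cohorts together (16 libraries per age), and Q20 and Q50 with the cohort housed with them. All groups share the strain, the tissue and the library method, and each knock-in mouse carries 1 altered allele beside 1 normal one. In bulk striatal RNA, fewer cells of a type and less RNA per cell cannot be told apart. The labels do not name litters, so p-values measure the spread between these libraries.

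Library totals ran from 29.1 M to 40.2 M counts (M, mega). Htt itself, of which 1 allele was altered, had 169, 172 and 181 CPM (lowest, median, highest library) in Q140 mice and 151, 196 and 208 CPM in wild types at 6 months. At 10 months it had 129, 168 and 186 CPM in Q140 mice and 189, 201 and 225 CPM in wild types. The summed level of 12 striatal projection neuron markers was 4822 to 7067 CPM in Q140 mice at 6 months, against 8641 to 11912 CPM in wild types. At 10 months it was 4834 to 6829 CPM in Q140 mice and 7275 to 12318 CPM in wild types, and 11 markers passed the test as lower at 6 months and 10 at 10 months. Markers of the thalamus, a neighbouring nucleus, varied from library to library. The summed level of 10 such genes was 136 to 916 CPM in Q140 mice at 6 months and 121 to 592 CPM at 10 months, against 128 to 522 CPM and 125 to 1154 CPM in wild types. In 16 libraries, pituitary, liver or midbrain dopamine neuron genes stood apart. Counts without them are given below for Q140 mice at 10 months and for sex in knock-ins alone.

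Of the 75 genes, 13 had no window in the promoter search, which does not show that they lack a RefSeq promoter. Promoters from RefSeq (build GRCm38.p6) were taken for the other 62, as windows of 250 bases before and 50 bases after the start. They were searched on both strands for the heat shock element bound by Hsf1, as 3 units written GAANNTTCNNGAA. They were also searched for the endoplasmic reticulum (ER) stress response element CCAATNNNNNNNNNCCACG. The 3-unit element was in 0.603% of all 32851 promoter windows and in 6 of the 82 windows of the 62 genes. These 6 belonged to Hsph1, Hspd1, Hspe1 and Dnajb6. The ER element was in 0.119% of all windows and in 3 of the 82, those of Hspa5, Hsp90b1 and Dnajc3. A shorter element of 2 units (GAANNTTC or TTCNNGAA), which the 3-unit element contains, was in 15.1% of all windows. It was in 20 of the 82 windows, which belonged to 18 of the 62 genes. The 6 windows below were chosen among those with a 3-unit or ER match. Of their genes, Hsph1, Hspd1, Hsp90b1, Hspa5 and Dnajc3 varied together between libraries, and Dnajb6 passed the test in Q140 mice. Dnaja1 also varied with Hsph1 but had neither match, so it is not shown. The windows run from 250 bases before to 30 bases after the RefSeq start, on the gene's strand, with the matched element in capitals. The windows of Hspd1 and Hspe1, genes transcribed away from each other, overlap and hold the same elements.
Hsph1 (chr5:149636286-149636565, minus strand): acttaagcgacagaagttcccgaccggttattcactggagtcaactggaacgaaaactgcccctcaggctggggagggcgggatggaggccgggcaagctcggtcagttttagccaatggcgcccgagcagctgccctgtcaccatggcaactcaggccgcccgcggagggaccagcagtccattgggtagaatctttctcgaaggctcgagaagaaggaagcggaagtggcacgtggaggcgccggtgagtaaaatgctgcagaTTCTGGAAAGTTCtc
Hspd1 (chr1:55087903-55088182, minus strand): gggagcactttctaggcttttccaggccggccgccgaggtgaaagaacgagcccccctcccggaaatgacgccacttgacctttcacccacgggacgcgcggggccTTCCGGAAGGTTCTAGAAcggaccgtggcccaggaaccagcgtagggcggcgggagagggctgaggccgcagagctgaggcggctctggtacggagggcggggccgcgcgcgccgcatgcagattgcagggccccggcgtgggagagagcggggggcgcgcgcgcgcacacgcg
Dnajb6 (chr5:29735648-29735927, plus strand): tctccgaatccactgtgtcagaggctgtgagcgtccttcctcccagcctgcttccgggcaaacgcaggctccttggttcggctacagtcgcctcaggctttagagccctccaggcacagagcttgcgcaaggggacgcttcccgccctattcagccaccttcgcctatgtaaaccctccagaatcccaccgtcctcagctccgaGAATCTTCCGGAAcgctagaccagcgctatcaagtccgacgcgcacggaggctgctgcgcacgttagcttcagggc
Hspa5 (chr2:34771840-34772119, plus strand): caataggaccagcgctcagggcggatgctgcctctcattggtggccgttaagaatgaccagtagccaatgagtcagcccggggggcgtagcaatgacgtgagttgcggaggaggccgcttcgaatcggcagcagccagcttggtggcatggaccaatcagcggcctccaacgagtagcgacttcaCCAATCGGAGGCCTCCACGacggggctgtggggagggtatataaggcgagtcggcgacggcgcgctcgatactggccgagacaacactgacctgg
Hsp90b1 (chr10:86705415-86705694, minus strand): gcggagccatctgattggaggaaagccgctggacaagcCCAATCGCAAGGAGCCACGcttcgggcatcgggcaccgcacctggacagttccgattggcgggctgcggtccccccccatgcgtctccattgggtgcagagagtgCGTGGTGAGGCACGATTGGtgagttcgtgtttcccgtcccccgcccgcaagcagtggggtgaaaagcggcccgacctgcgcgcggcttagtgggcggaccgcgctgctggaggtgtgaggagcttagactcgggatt
Dnajc3 (chr14:118937682-118937961, plus strand): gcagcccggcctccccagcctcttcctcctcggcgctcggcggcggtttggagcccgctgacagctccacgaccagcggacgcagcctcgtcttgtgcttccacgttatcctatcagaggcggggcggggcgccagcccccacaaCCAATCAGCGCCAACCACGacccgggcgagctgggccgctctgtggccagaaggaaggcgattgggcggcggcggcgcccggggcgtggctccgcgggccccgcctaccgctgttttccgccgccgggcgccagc
The element of Hspa5 began 65 bases before the start, that of Dnajc3 105 bases before it, and those of Hsp90b1 212 and 107 bases before it. The 2 overlapping matches of Hspd1 began 144 and 139 bases before the start, and the match of Dnajb6 46 bases before it. The Hsph1 match began 15 bases after this start. A match of letters is a description and shows no binding.

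Levels per length in the 32 wild-type libraries differed widely between the genes. Hspa8, the constitutive cytosolic Hsp70, had the highest level at 642 ± 61.0 FPKM (SD), followed by the cytosolic Hsp90 genes Hsp90ab1 at 476 ± 25.4 FPKM and Hsp90aa1 at 279 ± 25.8 FPKM. Hsp90b1, the Hsp90 of the ER, had 123 ± 11.6 FPKM. Among J-domain genes Dnajc7, a partner of both Hsp70 and Hsp90, led with 112 ± 7.53 FPKM and Dnaja1 had 90.9 ± 8.20 FPKM. Hspa5, the ER Hsp70, had 83.6 ± 10.1 FPKM, and Hsph1, a cytosolic Hsp110, had 80.6 ± 8.43 FPKM. Hspa5 and Hsph1, neighbours in this order, differed by less than either SD, as did Hspa9 at 70.1 ± 4.04 FPKM, the mitochondrial Hsp70, and Hspd1 at 68.3 ± 3.44 FPKM. The heat-inducible Hsp70 genes were lowest, Hspa1a at 1.22 ± 0.433 FPKM and Hspa1b at 0.898 ± 0.483 FPKM. They are near-identical copies on chromosome 17 whose reads the counting may have split, so each of their values is uncertain.

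At 6 months 16 of the 75 genes passed the test in Q140 mice against wild types, 7 higher and 9 lower. These were 21.3% of the genes, against 23.7% of all genes tested, and by direction 11.7% of all genes were higher and 12% lower. The share was near that of all genes, and the median log2 fold change was 0.00 for the 75 genes and 0.01 for all. Those lower in Q140 mice belonged to the J-domain (Dnajc8, Dnajc7, Dnajc2 and Dnajb4), Bag (Bag5 and Bag4), Hsp90 (Hsp90b1), CCT (Cct7) and Hsp110 (Hspa4) families. The higher ones were Hspa13, Hspa12a, Dnajc6, Dnajc18, Dnajc4, Dnajc27 and Dnajb14. In the same comparison 5 of 10 thalamus markers were higher (median log2 fold change 0.95), and of 10 cortical projection neuron markers 4 were lower and 1 higher (median -0.75, summed level 109 to 297 CPM in Q140 mice and 113 to 332 CPM in wild types). With the thalamus level as a covariate 14 of the 75 genes passed, 4 higher and 10 lower (20.3% of all genes), and the calls of Hspa12a, Dnajc27 and Dnajb14 were lost while those of Hspa13, Dnajc6, Dnajc18 and Dnajc4 were not. On log2 FPKM values with limma the split was 12 higher and 7 lower, and the split of all genes under limma is not given here. The calls of Dnajb14, Hspa12a and Dnajc27 were lost without any of 18, 15 and 5 single libraries (adjusted p up to 0.0853, 0.188 and 0.104).

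Dnajc8, a J-domain protein of the spliceosome (ENSMUSG00000054405, chromosome 4, 132535550 to 132553742 in GRCm38), had 64.3, 68.8 and 73.8 CPM in the lowest, median and highest Q140 library at 6 months. Wild types had 74.2, 80.3 and 89.9 CPM, so every Q140 library lay below all 16 wild types. Its log2 fold change was -0.23 ± 0.027 (SE, adjusted p = 2.74e-09 by edgeR's quasi-likelihood test, as are all adjusted p-values here). Dnajc7 (ENSMUSG00000014195) had 154, 159 and 168 CPM in Q140 mice and 166, 180 and 195 CPM in wild types. It was lower than every wild type in 7 of 8 Q140 libraries, with a log2 fold change of -0.19 ± 0.026 (adjusted p = 2.5e-07). Dnajc2, which sits on the ribosome with an Hsp70 and receives emerging chains, had 28.6, 33.6 and 37.2 CPM in Q140 mice and 35.6, 40.8 and 45.2 CPM in wild types. The groups overlapped in 2 Q140 libraries, and the log2 fold change of -0.28 ± 0.047 (adjusted p = 8.29e-06) was the largest fall among the genes that passed at this age.

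Bag5, a nucleotide exchange factor of Hsp70, had 45.3, 51.8 and 53.9 CPM in Q140 mice and 53.8, 58.0 and 65.4 CPM in wild types. All but 1 Q140 library lay below every wild type, and its log2 fold change was -0.20 ± 0.036 (adjusted p = 4.17e-05). Hsp90b1 had 277, 289 and 322 CPM in Q140 mice and 289, 334 and 380 CPM in wild types, with 4 of 8 Q140 libraries below every wild type. It was lower by a log2 fold change of -0.18 ± 0.039 (adjusted p = 0.000521), while Hspa5, the other abundant ER chaperone, had -0.05 ± 0.069 (adjusted p = 0.646). Hspa13, an Hsp70 of microsomes with no peptide-binding domain, went the other way, with 53.0, 58.0 and 61.3 CPM in Q140 mice and 47.3, 52.7 and 56.9 CPM in wild types. In 6 of 8 Q140 libraries it exceeded every wild type (log2 fold change 0.15 ± 0.036, adjusted p = 0.00169). Dnajc6, the neuronal auxilin that strips clathrin from vesicles together with Hsc70, had 222, 238 and 260 CPM in Q140 mice and 169, 214 and 254 CPM in wild types. All 8 Q140 libraries were above the wild-type median and 1 above every wild type, with a log2 fold change of 0.17 ± 0.042 (adjusted p = 0.00199).

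The inducible genes did not pass the test at 6 months. Hspa1a had 3.76, 4.46 and 6.53 CPM in Q140 mice and 2.25, 3.52 and 6.38 CPM in wild types, a log2 fold change of 0.27 ± 0.15 (adjusted p = 0.198). Hspa1b had 0.05 ± 0.25 (adjusted p = 0.907), Dnajb1, the main J-domain partner of inducible Hsp70, 0.03 ± 0.067 (adjusted p = 0.798) and Hsph1 -0.06 ± 0.042 (adjusted p = 0.288). Hspb1 had -0.15 ± 0.10 (adjusted p = 0.288) and Bag3, which links Hsp70 to autophagy, 0.13 ± 0.080 (adjusted p = 0.25). A p that misses the threshold does not show that these genes were alike in the groups.

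**Figure D1:**
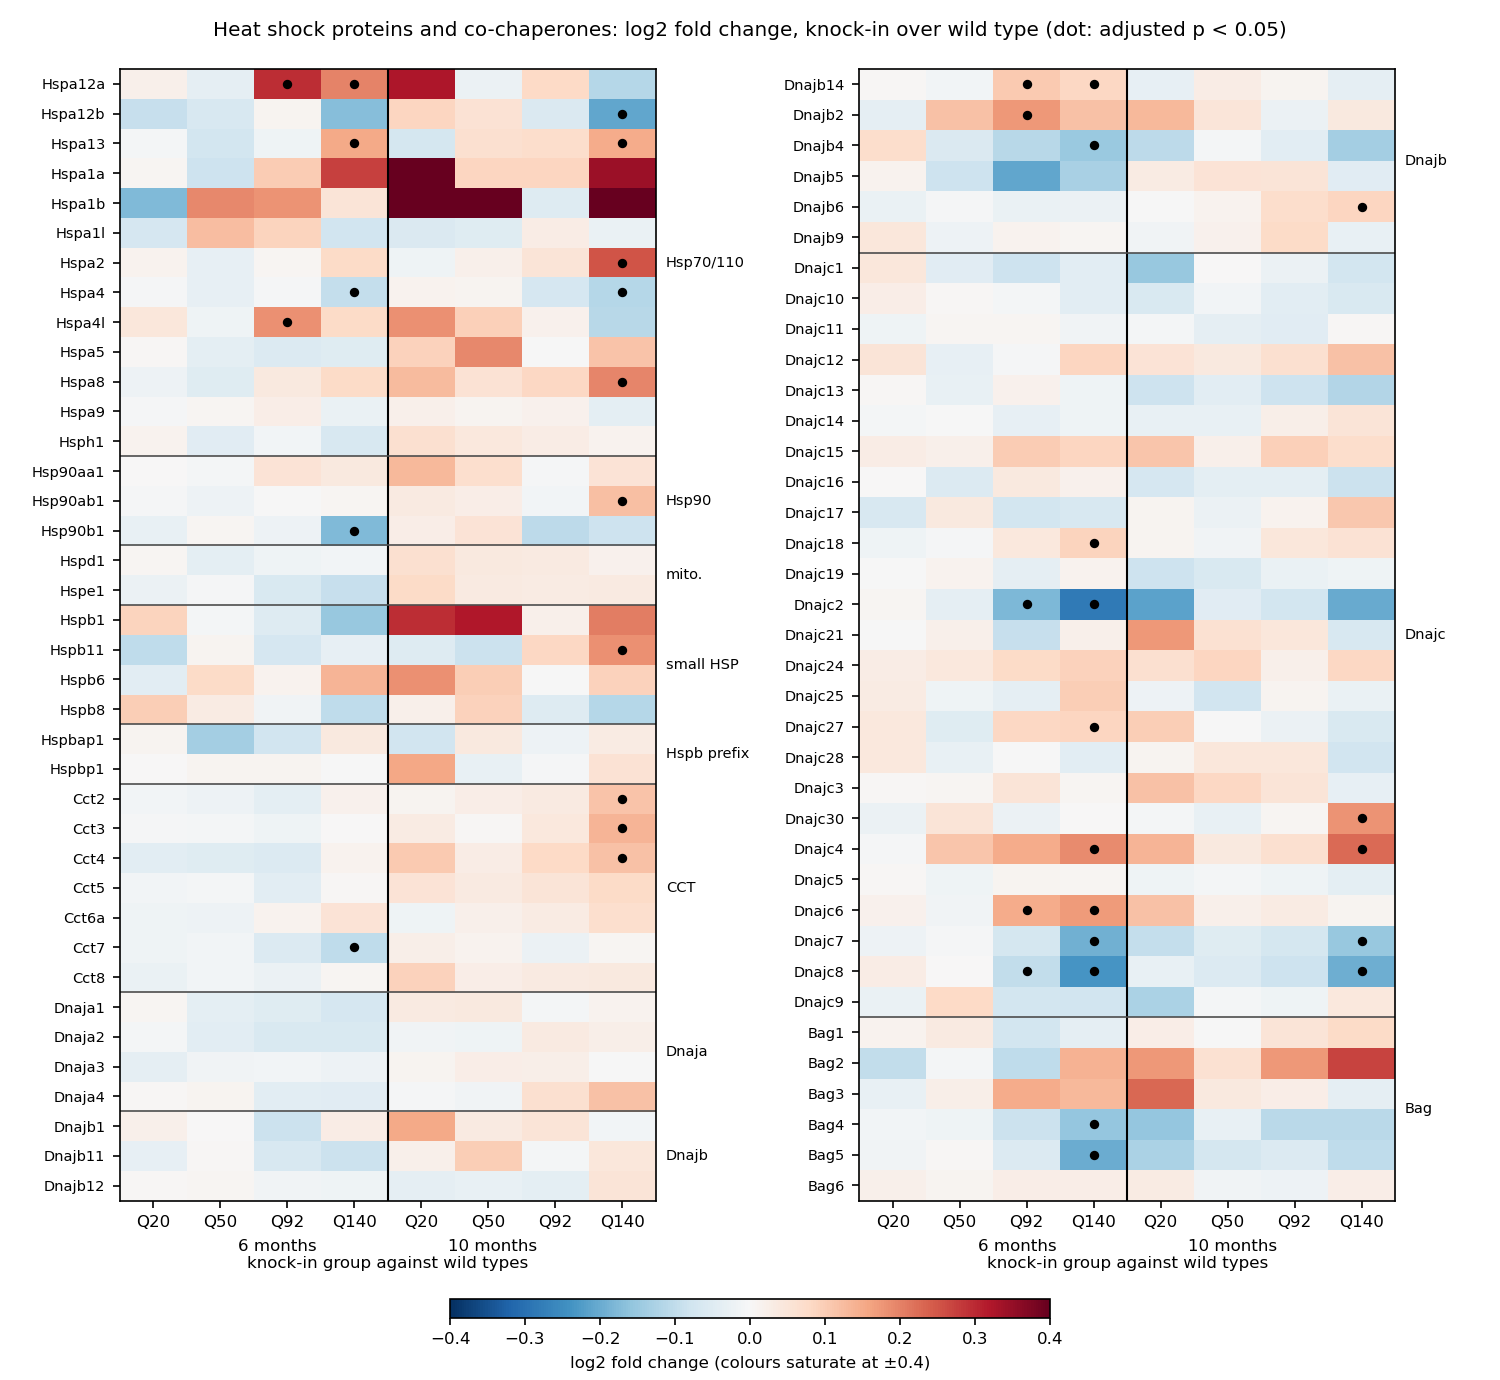
Log2 fold change of each of the 75 genes (rows, grouped by chaperone family) in Q20, Q50, Q92 and Q140 mice against wild types at 6 and 10 months (columns), with a dot where the adjusted p was under 0.05. The dots sit in the Q92 column of 6 months and in both Q140 columns, 16 at 6 months and 15 at 10 months, spread over most families.

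At 10 months 15 of the 75 genes passed in Q140 mice, 11 higher and 4 lower. That was 20.0% of the genes against 19.2% of all genes tested, and by direction 10.8% of all genes were higher and 8.45% lower. The median log2 fold change was 0.02 for the 75 genes and 0.01 for all. The 11 higher genes included 3 subunits of CCT (Cct2, Cct3 and Cct4), 3 Hsp70 genes (Hspa8, Hspa2 and Hspa13) and Hsp90ab1. With the thalamus level as a covariate the count was 32 (22 higher, 10 lower), when 29.4% of all genes passed. On log2 FPKM values with limma it was 20, of which 18 were higher and 2 lower. Without the libraries that held other tissue it was 12. The shares and split of all genes under limma and without those libraries are not given here. Of 10 thalamus markers 1 was lower in the same Q140 mice, with a median log2 fold change of -1.18. Some markers of other cells were lower too: 4 of 8 astrocyte (median log2 fold change -0.17), 4 of 8 oligodendrocyte (-0.11) and 3 of 8 blood vessel markers (-0.16) passed, and 0 were higher. Of 8 microglia, 5 oligodendrocyte precursor and 10 cortical projection neuron markers 0 passed (medians 0.05, 0.04 and 0.10). The summed astrocyte level was 4137 to 5532 CPM in Q140 mice and 5393 to 6607 CPM in wild types, and the blood vessel level 234 to 299 CPM in Q140 mice and 259 to 323 CPM in wild types. The oligodendrocyte level was 7157 to 10908 CPM in Q140 mice and 8059 to 13031 CPM in wild types. The part of glial and vessel cells in the calls was not tested. The calls of Hspb11 and Hspa12b were lost without Q140 female 3 or male 4, and that of Hspa12b also without male 2 (adjusted p up to 0.181 and 0.089).

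Cct3 (ENSMUSG00000001416, chromosome 3, 88297116 to 88321767 in GRCm38) had 113, 119 and 132 CPM in Q140 mice at 10 months and 97.0, 110 and 125 CPM in wild types. All 8 Q140 libraries were above the wild-type median and 3 above every wild type, with a log2 fold change of 0.14 ± 0.028 (adjusted p = 0.000372). Cct2 had 118, 122 and 136 CPM in Q140 mice and 105, 114 and 121 CPM in wild types, and 5 Q140 libraries exceeded every wild type (log2 fold change 0.11 ± 0.027, adjusted p = 0.00158). Cct4 had 0.12 ± 0.034 (adjusted p = 0.0115). The remaining 4 subunits had values of 0.08 (Cct5, adjusted p = 0.106), 0.07 (Cct6a, 0.232), 0.04 (Cct8, 0.588) and 0.01 (Cct7, 0.893). The eighth subunit, Tcp1, falls outside the symbol rule and was looked up after the others; it had 0.08 ± 0.030 (adjusted p = 0.0471).

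Hspa8 (ENSMUSG00000015656) had 1594, 1692 and 1965 CPM in Q140 mice at 10 months and 1261, 1528 and 1766 CPM in wild types. Every Q140 library was above the wild-type median and 3 were above every wild type, with a log2 fold change of 0.19 ± 0.053 (adjusted p = 0.00754). Hspa2, an Hsp70 best known from the testis, had 23.4, 25.5 and 29.4 CPM in Q140 mice and 15.96, 21.4 and 25.9 CPM in wild types. It had the largest rise among the genes that passed, a log2 fold change of 0.25 ± 0.055 (adjusted p = 0.000787), with 3 Q140 libraries above every wild type. Hsp90ab1 had 1205, 1332 and 1512 CPM in Q140 mice and 1162, 1213 and 1385 CPM in wild types, overlapping in all but 3 Q140 libraries (log2 fold change 0.12 ± 0.035, adjusted p = 0.0113). Its stress-inducible sister Hsp90aa1 had 0.05 ± 0.059 (adjusted p = 0.573). Dnajb6, a J-domain protein known to suppress polyglutamine aggregation in cells, had 109, 112 and 116 CPM in Q140 mice and 97.4, 105 and 114 CPM in wild types. Its rise was small, a log2 fold change of 0.08 ± 0.025 (adjusted p = 0.0114), with 2 Q140 libraries above every wild type.

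The inducible genes again did not pass. Hspa1a had 2.40, 3.68 and 4.93 CPM in Q140 mice at 10 months and 1.36, 2.97 and 5.12 CPM in wild types (log2 fold change 0.34 ± 0.18, adjusted p = 0.188). Hspa1b had 1.44, 2.70 and 6.02 CPM in Q140 mice and 1.28, 1.88 and 6.46 CPM in wild types (0.41 ± 0.29, adjusted p = 0.35). Both ranges lay within those of the wild types. Hspb1 had 0.20 ± 0.13 (adjusted p = 0.288), Dnajb1 -0.01 ± 0.070 (adjusted p = 0.946), Hsph1 0.01 ± 0.064 (adjusted p = 0.907) and Bag3 -0.04 ± 0.072 (adjusted p = 0.787).

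The 5 genes that passed at both ages in Q140 mice were Dnajc8, Dnajc7, Hspa4, Hspa13 and Dnajc4, each in the same direction at both ages. They were 5 of 16 genes called at 6 months and 5 of 15 called at 10 months. A further 11 passed at 6 months alone, 10 at 10 months alone and 49 at neither age. Of the 75 genes 6.67% passed at both ages, 14.7% at 6 months alone and 13.3% at 10 months alone, against 8.99%, 14.9% and 10.4% of the 17143 genes tested at both ages, shares near each other. Dnajc8 at 10 months had 65.9, 68.0 and 79.6 CPM in Q140 mice and 73.1, 79.5 and 85.6 CPM in wild types, and 7 of 8 Q140 libraries lay below every wild type. Its log2 fold change was -0.20 ± 0.033 (adjusted p = 2.15e-05). Dnajc7 had 151, 168 and 192 CPM in Q140 mice and 167, 187 and 213 CPM in wild types, with 3 Q140 libraries below every wild type (-0.15 ± 0.042, adjusted p = 0.0075). Hspa13 had 46.7, 59.7 and 64.3 CPM in Q140 mice and 47.1, 52.8 and 57.4 CPM in wild types, with 6 libraries above every wild type and 1 below every one (0.15 ± 0.045, adjusted p = 0.0161). Hspa4, an Hsp110, had 203, 225 and 252 CPM in Q140 mice and 220, 245 and 283 CPM in wild types, with 7 of 8 libraries below the wild-type median (-0.11 ± 0.037, adjusted p = 0.025). Dnajc4 had log2 fold changes of 0.19 ± 0.049 (adjusted p = 0.00376) at 6 months and 0.23 ± 0.078 (adjusted p = 0.0357) at 10 months. The Hspa4 call was lost without Q140 male 2 at 6 months (adjusted p = 0.0735), and at 10 months without Q140 male 3 or male 4 (adjusted p up to 0.108). The Dnajc4 call at 10 months was lost without any of 8 single libraries (adjusted p up to 0.136).

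The Q140 difference itself changed with age for 1 gene. The log2 fold change of Cct3 was higher at 10 months than at 6 months by 0.14 ± 0.039 (adjusted p = 0.0425), when 1.27% of all genes passed this test. It was 0.14 at 10 months and 0.00 at 6 months, where Cct3 had an adjusted p of 0.947. The call was lost under other normalization, other filters and the replicate block (counts of 0), and DESeq2 called 2 genes. Next in order were Dnajb6 (0.12 ± 0.034, adjusted p = 0.053) and Cct7 (0.12 ± 0.041, adjusted p = 0.088). By the same test of change with age, 3 of 10 thalamus markers (median -2.12) and 1 of 8 blood vessel markers (-0.16) were lower at 10 months. Of 10 cortical projection neuron markers 0 passed, with a median of 1.08. No tissue level was fitted here as a covariate, so the part of tissue make-up in the Cct3 change was not tested. The Q140 difference did not differ between females and males in any of the 75 genes at either age by edgeR or DESeq2, nor in any gene tested (0.0% at 6 months and 0.0% at 10 months). Among the 75, 0 genes at 6 months and 3 at 10 months had an unadjusted p under 0.05, as had 1.90% and 4.32% of all genes.

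**Figure D2:**
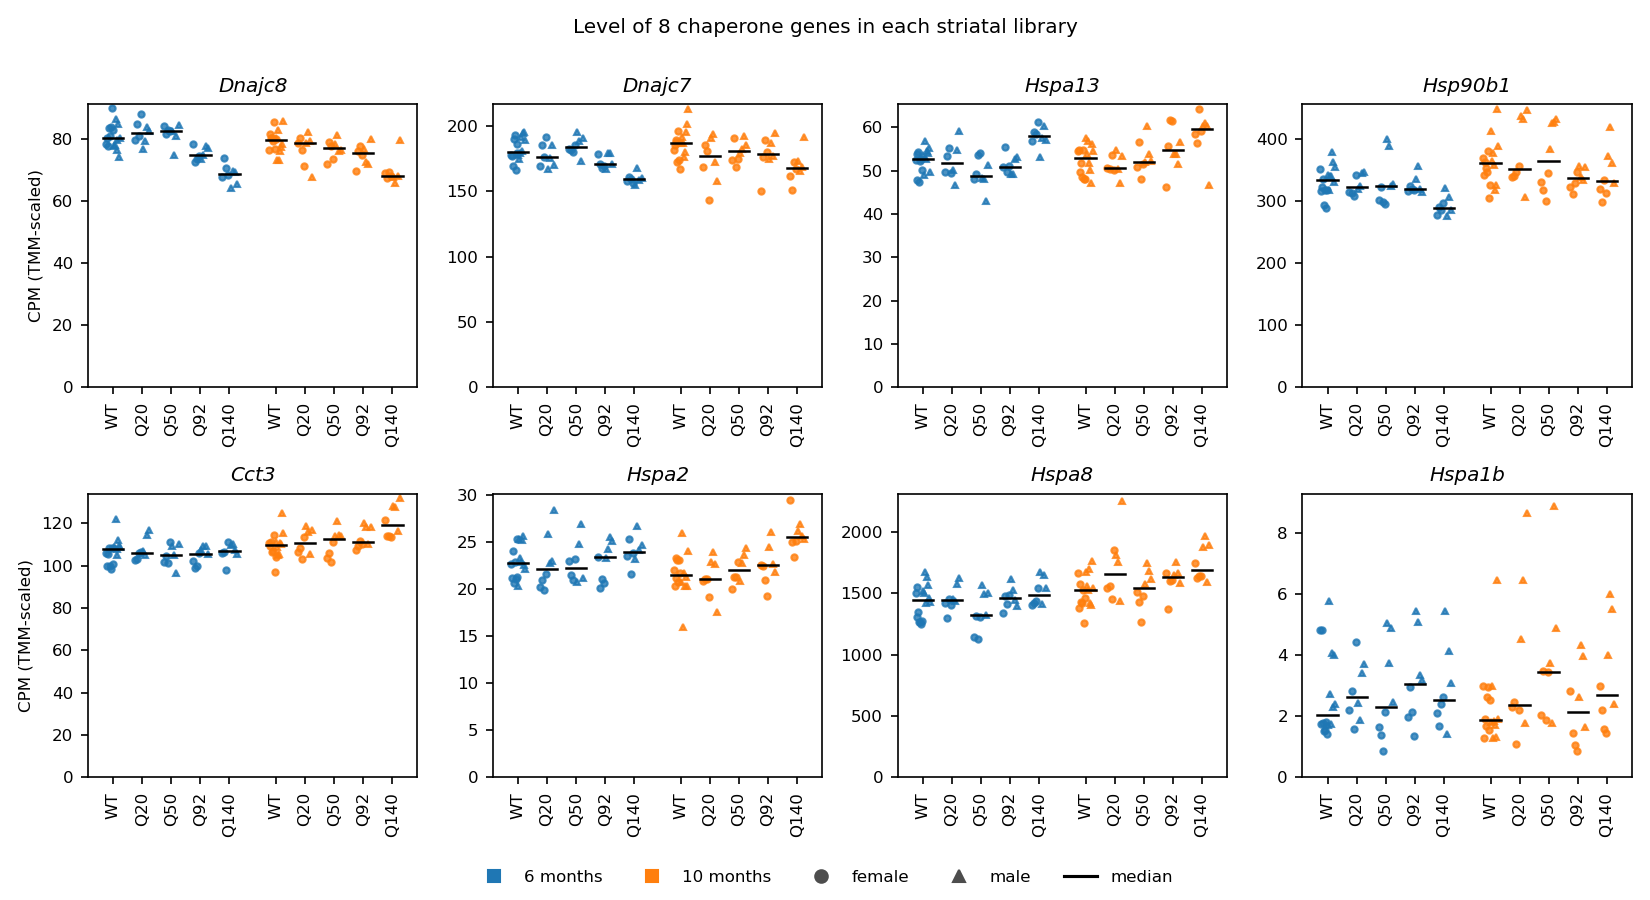
CPM of 8 chaperone genes in each library (circles, females; triangles, males; bar, median), by genotype, at 6 months (blue) and 10 months (orange), with axes from 0. Dnajc8 is lowest in Q140 mice at both ages (medians 68.8 and 68.0 CPM, against 80.3 and 79.5 CPM in wild types), while Hspa1b spreads within every group.

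Shorter alleles gave few calls. In Q92 mice at 6 months 7 genes passed (5 higher, 2 lower), 9.33% of the 75 genes against 5.44% of all genes. Hspa12a, a distant Hsp70 relative, had a log2 fold change of 0.29 ± 0.074 (adjusted p = 0.0162), Hspa4l, an Hsp110, 0.18 ± 0.050 (adjusted p = 0.0278), and Dnajb2, a J-domain protein that carries ubiquitin-interacting motifs, 0.17 ± 0.048 (adjusted p = 0.0281). Dnajc6 had 0.15 ± 0.042 (adjusted p = 0.0291) and Dnajb14, a J-domain protein of the ER membrane, also passed. Dnajc2 was lower at -0.18 ± 0.046 (adjusted p = 0.0186) and Dnajc8 at -0.10 ± 0.026 (adjusted p = 0.0255). Of 10 thalamus markers 9 were higher in these Q92 mice, with a median log2 fold change of 1.26, and with the thalamus level as a covariate 0 of the 75 genes passed. Against Q20-cohort wild types or Q20 mice, with 8 control libraries each, the count was also 0. The shares of all genes in these alternative fits are not given here. Thalamic tissue and genotype cannot be told apart in these 7 calls.

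At 10 months 0 of the 75 genes passed in Q92 mice by edgeR or DESeq2 (0.422% of all genes by edgeR). An unadjusted p under 0.05 was found for 5 of them and for 9.27% of all genes. In Q50 mice against their own cohort 0 passed at 6 months (0.0634% of all genes) and 0 at 10 months (0.0636%). An unadjusted p under 0.05 was found for 2 and 3 genes, and for 2.23% and 2.91% of all genes. In Q20 mice 0 passed at 6 months (0.0231%) and 0 at 10 months (0.0405%). An unadjusted p under 0.05 was found for 0 and 11 genes, and for 1.66% and 16.3% of all genes. DESeq2 also gave 0 in these 4 comparisons. The smallest p of Q20 mice at 10 months belonged to Hspa1a, whose log2 fold change of 0.71 ± 0.21 had an adjusted p of 0.217. The wild-type cohorts, housed with Q50 or with Q20 mice, differed in 0 of the 75 genes at 6 months by edgeR (0.0% of all genes, 13 genes at an unadjusted p under 0.05, 2 called by DESeq2). At 10 months they differed in 0 as well (0.347% of all genes, 7 at an unadjusted p under 0.05, 0 by DESeq2). Between these cohorts 14.8% of all genes had an unadjusted p under 0.05 at 6 months, and 9.63% at 10 months.

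Across the 32 knock-in libraries of an age, levels were also fitted on CAG length, as a slope per 120 CAG units. The Q140 libraries enter both this slope and the comparison with wild types. At 6 months 11 of the 75 genes had a slope past the threshold, 3 rising (7.83% of all genes rose) and 8 falling (9.52% fell). That was 14.7% of the genes against 17.3% of all genes. Dnajc8 had the smallest p, with a slope of -0.27 ± 0.028 (adjusted p = 4.97e-08), followed by Dnajc2 at -0.29 ± 0.053 (adjusted p = 0.00015) and Dnajc7 at -0.17 ± 0.032 (adjusted p = 0.000251). Dnajb4, a Hsp40 of the Dnajb1 kind, fell by -0.20 ± 0.046 (adjusted p = 0.00214), and Hspa13 rose by 0.17 ± 0.046 (adjusted p = 0.0106). Median CPM of Dnajc8 at 6 months was 81.8 in Q20, 82.6 in Q50, 74.7 in Q92 and 68.8 in Q140 mice.

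At 10 months 15 genes had a slope past the threshold, 9 rising (12.6% of all genes) and 6 falling (11.4%), or 20.0% of the genes against 24.0% of all genes. Hspa2 rose with CAG length by 0.27 ± 0.051 (adjusted p = 0.000278). Its median was 21.1 CPM in Q20, 22.0 in Q50, 22.5 in Q92 and 25.5 in Q140 mice. Hspa12b, an Hsp70 relative of blood vessel lining cells, fell with a slope of -0.35 ± 0.083 (adjusted p = 0.00271), and Hspb11, a ciliary transport protein named as a small heat shock protein, rose by 0.28 ± 0.069 (adjusted p = 0.00395). Cct3 rose by 0.12 ± 0.030 (adjusted p = 0.0035) and Hspa4l fell with -0.31 ± 0.094 (adjusted p = 0.016). Tested by limma on the FPKM values (log2), 6 were rising and 7 falling at 6 months, and 13 rising and 4 falling at 10 months. The split of all genes in these limma slopes is not given here. Over Q20, Q50 and Q92 mice alone, 0 genes had a slope past the threshold at either age. All 10 thalamus markers fell with CAG length at 10 months (median slope -1.99), as did 4 of 8 blood vessel (-0.22), 4 of 8 astrocyte (-0.28) and 4 of 8 oligodendrocyte markers (-0.29), while of 9 cortical markers 5 rose and 1 fell (0.33). With thalamus and cortex levels as covariates 9 genes passed (12.1% of all genes). The part of vessel and glial cells in the slopes, that of Hspa12b among them, was not tested.

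**Figure D3:**
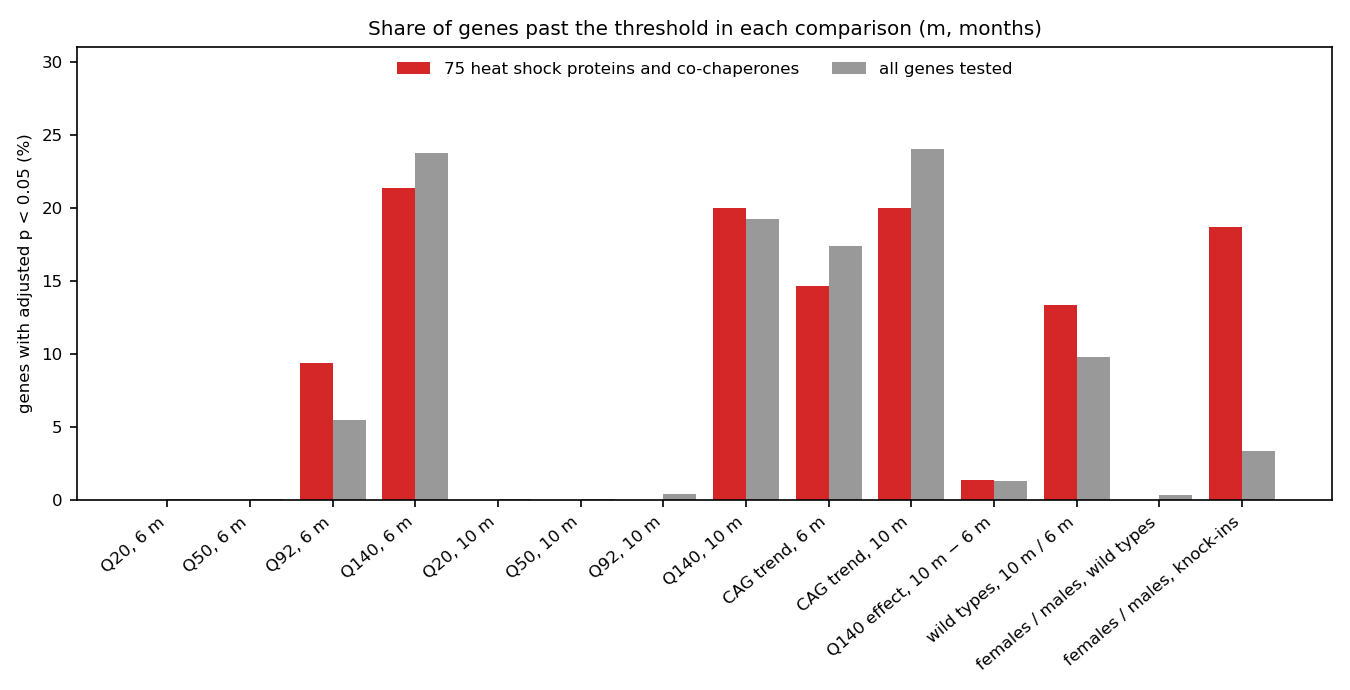
Percentage of genes with an adjusted p under 0.05 in each comparison, for the 75 heat shock proteins and co-chaperones (red) and for all genes tested (grey), with bars from 0. The red and grey bars are near each other in the Q140 comparisons (21.3% and 23.7% at 6 months, 20.0% and 19.2% at 10 months), and far apart for females against males in knock-ins (18.7% and 3.34%).

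Females and males were compared next. In the 32 wild types 0 of the 75 genes passed by edgeR (0.311% of all genes) and 2 by DESeq2, but 57 had a log2 fold change below 0 in females over males. An unadjusted p under 0.05 was found for 24 of them, 32% of the 75 genes against 9.01% of all genes, and 23 of the 24 were lower in females. The same comparison was then made, after these values were seen, in the 64 knock-in libraries, which share no animal with the wild types. There 14 of the 75 genes passed, 13 lower and 1 higher in females. They were 18.7% of the genes, against 3.34% of all genes tested, and 1.45% of all genes were lower in females. The median log2 fold change, females over males, was -0.03 for the 75 genes and 0.00 for all. All 13 lower genes were below 0 in the wild types too, and all 23 genes with a low unadjusted p in wild types were below 0 in knock-ins.

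The largest difference belonged to Hspa1b. At 10 months it had 0.861, 2.12 and 3.48 CPM (lowest, median, highest) in the 16 knock-in females and 1.64, 4.17 and 8.88 CPM in the 16 knock-in males. At 6 months it had 0.864, 2.13 and 4.42 CPM in knock-in females and 1.42, 3.57 and 5.45 CPM in knock-in males. The ranges overlapped at both ages, and the female mean was lower in 11 of 12 groups of age and genotype or cohort. Of these 12 groups 8 are knock-in groups, the same libraries from which Hspa1b, Hspb1, Hsph1 and Dnaja4 were picked. Lower female means in those 8 groups are therefore no separate test. Over the 64 knock-in libraries the log2 fold change of Hspa1b was -0.93 ± 0.15 (adjusted p = 2.16e-05). Its near-identical copy Hspa1a did not pass, and the female mean was lower in 8 of 12 groups.

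Hspb1, the small heat shock protein Hsp27 (ENSMUSG00000004951, chromosome 5, 135887919 to 135889563 in GRCm38), had 2.93, 3.70 and 5.48 CPM in knock-in females at 10 months and 3.64, 5.67 and 8.29 CPM in knock-in males. At 6 months it had 2.80, 4.29 and 5.34 CPM in knock-in females and 3.42, 5.09 and 6.08 CPM in knock-in males. The female mean was lower in 12 of 12 groups, and the log2 fold change was -0.41 ± 0.066 (adjusted p = 2.06e-05). Hsph1 (ENSMUSG00000029657) had 256, 297 and 337 CPM in knock-in females at 10 months and 293, 364 and 414 CPM in knock-in males, again lower in females in 12 of 12 groups (-0.19 ± 0.031, adjusted p = 3.7e-05). Dnaja4, a J-domain protein of the Dnaja1 kind, had 39.9, 52.2 and 59.6 CPM in knock-in females at 10 months and 51.3, 61.1 and 70.5 CPM in knock-in males. Its mean was lower in females in 12 of 12 groups (-0.17 ± 0.027, adjusted p = 2.88e-05).

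The other genes lower in knock-in females were Hsp90b1 (-0.16 ± 0.028, adjusted p = 8.96e-05), Hsp90ab1 (-0.10 ± 0.017, adjusted p = 0.000116), Hspa8 (-0.15 ± 0.029, adjusted p = 0.000454) and Hspa5 (-0.16 ± 0.044, adjusted p = 0.0235). Dnajb11, an ER J-domain partner of Hspa5, Cct3, Hspa2, Dnaja1 and Dnaja2 also passed, with log2 fold changes between -0.12 and -0.07. By family, 3 of 4 Dnaja, 5 of 13 Hsp70 and Hsp110, 2 of 3 Hsp90, 1 of 7 CCT, 1 of 9 Dnajb and 1 of 4 small heat shock protein genes were lower. Of 25 Dnajc genes 0 were lower, and Dnajc10, an ER disulfide reductase, was higher in females (0.06 ± 0.017, adjusted p = 0.0206). In the knock-ins of 6 months 3 genes passed (4.0% against 1.02% of all genes) and in those of 10 months 8 (10.7% against 0.681%), all lower in females. Over all 96 libraries 22 passed, 21 lower and 1 higher in females, or 29.3% against 6.21% of all genes.

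Cell type markers were set beside the sex difference in the knock-ins. Of 12 striatal projection neuron, 10 thalamus, 10 cortical projection neuron, 8 astrocyte and 8 oligodendrocyte markers 0 passed, with medians of -0.08, 0.10, -0.15, 0.05 and 0.03. Of 8 blood vessel markers 1 was lower in females (Cldn5, -0.29 ± 0.071; list median -0.08), and of 5 red blood cell markers 1 was lower (Hba-a2, -0.29 ± 0.076; list median -0.23). Of 8 microglia markers 1 was higher (Itgam, 0.11 ± 0.031; list median 0.03), and of 5 oligodendrocyte precursor markers 1 was higher (Pdgfra, 0.08 ± 0.023; list median -0.03). Several of these list medians were farther from 0 than the -0.03 of the 75 genes, and the part of those cells in the difference was not tested. Pituitary and liver genes differed: Prl was higher in females by 3.68 ± 0.81 and Alb lower by -5.17 ± 1.30 on the log2 scale. Without the libraries that held other tissue 12 of the 75 genes passed, 12 of them lower in females, against 1.82% of all genes. With the thalamus level as a covariate 17 passed, 16 of them lower, against 4.02% of all genes. Whether females and males were dissected together is not given in the labels, and its part in the difference was not tested.

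**Figure D4:**
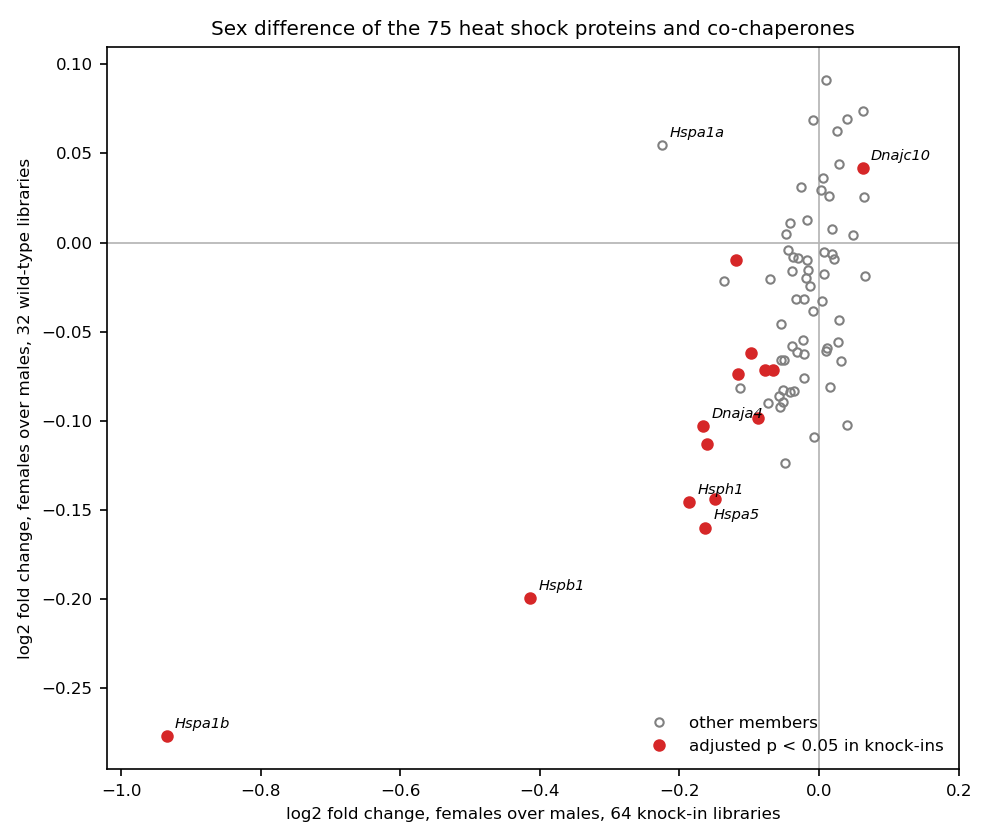
Log2 fold change, females over males, of the 75 genes in the 64 knock-in libraries (x axis) and in the 32 wild-type libraries (y axis), with filled points for an adjusted p under 0.05 in knock-ins. The 13 genes that passed as lower lie below 0 on both axes, with Hspa1b (-0.93) and Hspb1 (-0.41) farthest out.

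Other genes of the pathway are given from lists of symbols outside the rule, except for Hspbp1 in the sex counts. Of 6 heat shock factor genes, Hsf1 was lower in Q140 mice at 6 months (log2 fold change -0.12 ± 0.042, adjusted p = 0.0374) and had -0.03 ± 0.047 at 10 months (adjusted p = 0.663). Its binding protein Hsbp1 was higher at 10 months (0.10 ± 0.032, adjusted p = 0.0169). Of 21 tested partners of Hsp90 and Hsp70, 1 was higher and 5 lower at 6 months, and 6 were higher and 0 lower at 10 months. Fkbp8 (-0.15 ± 0.031, adjusted p = 0.000265) and Tomm70a (-0.24 ± 0.050, adjusted p = 0.000301) led at 6 months, and Ahsa1, the activator of the Hsp90 ATPase (0.22 ± 0.046, adjusted p = 0.000399), and Unc45a (0.18 ± 0.044, adjusted p = 0.00211) at 10 months.

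Of 21 ER folding and unfolded protein response genes, 1 was higher and 5 lower in Q140 mice at 6 months and 2 were higher and 2 lower at 10 months. Atf6, a sensor of unfolded ER protein, was lower at both ages, by -0.39 ± 0.045 (adjusted p = 5.88e-09) at 6 months and -0.50 ± 0.080 (adjusted p = 8.11e-06) at 10 months. Atf3, a stress transcription factor, was higher at 10 months by 1.08 ± 0.20 (adjusted p = 9.81e-05). Of 18 chaperones outside the symbol rule, 2 were higher and 4 lower at 6 months and 3 were higher and 1 lower at 10 months. In females against males of the knock-ins, 7 of 21 ER genes, 4 of 22 partners and 2 of 18 other chaperones were lower in females and 0 higher. The 22 partners include Hspbp1, also 1 of the 75 genes, which is left out of the 21 partners tested in Q140 mice. Calr, the ER lectin chaperone (-0.20 ± 0.027, adjusted p = 4.56e-07), Pdia6 (-0.18 ± 0.026, adjusted p = 1.86e-06) and Ahsa1 (-0.15 ± 0.022, adjusted p = 2.53e-06) had the smallest p-values, and Hsf1 had -0.08 ± 0.023 (adjusted p = 0.0336).

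Among wild types, 10 of the 75 genes differed between 10 and 6 months, 8 higher and 2 lower at 10 months, or 13.3% against 9.74% of all genes. The library numbers in the labels do not overlap between the ages, so age and anything that follows those numbers cannot be told apart. Hsp90aa1 was higher at 10 months by 0.14 ± 0.035 (adjusted p = 0.0126) and Dnajc6 by 0.17 ± 0.046 (adjusted p = 0.016), and Dnajc30 was lower by -0.15 ± 0.039 (adjusted p = 0.0141). The other 2 Hsp90 genes were also higher, Hsp90b1 by 0.13 ± 0.039 (adjusted p = 0.0281) and Hsp90ab1 by 0.08 ± 0.025 (adjusted p = 0.0337). With no filter on low counts 4 genes passed.

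The genes also varied between libraries of 1 group and sex. The spread on the log2 scale, over 72 degrees of freedom, was 0.61 for Hspa1b, 0.39 for Hspa1a, 0.26 for Hspb1 and 0.26 for Dnajb5, against 0.046 for Dnajc11 and 0.048 for Dnajc5, the synaptic vesicle J-domain protein. Correlations with Hsph1 were then computed over all 96 libraries after group and sex means were removed, a choice made after the levels had been seen. Of the other 74 genes 18 had a Pearson r of at least 0.5 (24.3%), against 928 of 14675 genes (6.32%), and the median r was 0.27 for the 74 genes and 0.00 for all. Libraries share depth and tissue make-up, so these counts describe the libraries and are not independent gene by gene.

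Hsp90b1 had the highest r with Hsph1 at 0.76 and a Spearman rho of 0.69 (each p = 1e-05, the smallest that 100000 permutations can give, BH-adjusted p = 0.000132 and 0.000121 over all genes). Without the 2 libraries farthest in Hsph1 r was 0.72, and by age it was 0.58 at 6 months and 0.83 at 10 months. Dnaja1 had an r of 0.73 and a rho of 0.73, Hspa4 0.70 and 0.70, Hspa5 0.70 and 0.69, Hspd1 0.69 and 0.69, and Dnajb1 0.67 and 0.68. Without the 2 farthest libraries the r of these 5 genes lay between 0.64 and 0.69. Genes of the cytosol, the ER and mitochondria were among the 18. Other genes went the opposite way, with Dnajc4 at -0.45, Dnajc11 at -0.43, Hspbp1 at -0.42 and Dnajc30 at -0.42. By age, 20 genes reached 0.5 at 6 months and 20 at 10 months, 13 of them at both. Of 4 library measures, the library total had an r of -0.17 with Hsph1 (permutation p adjusted over the 4, 0.183), the thalamus level -0.22, the cortex level -0.25 and the striatal projection neuron level 0.25 (adjusted permutation p = 0.116 for each of these 3).

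**Figure D5:**
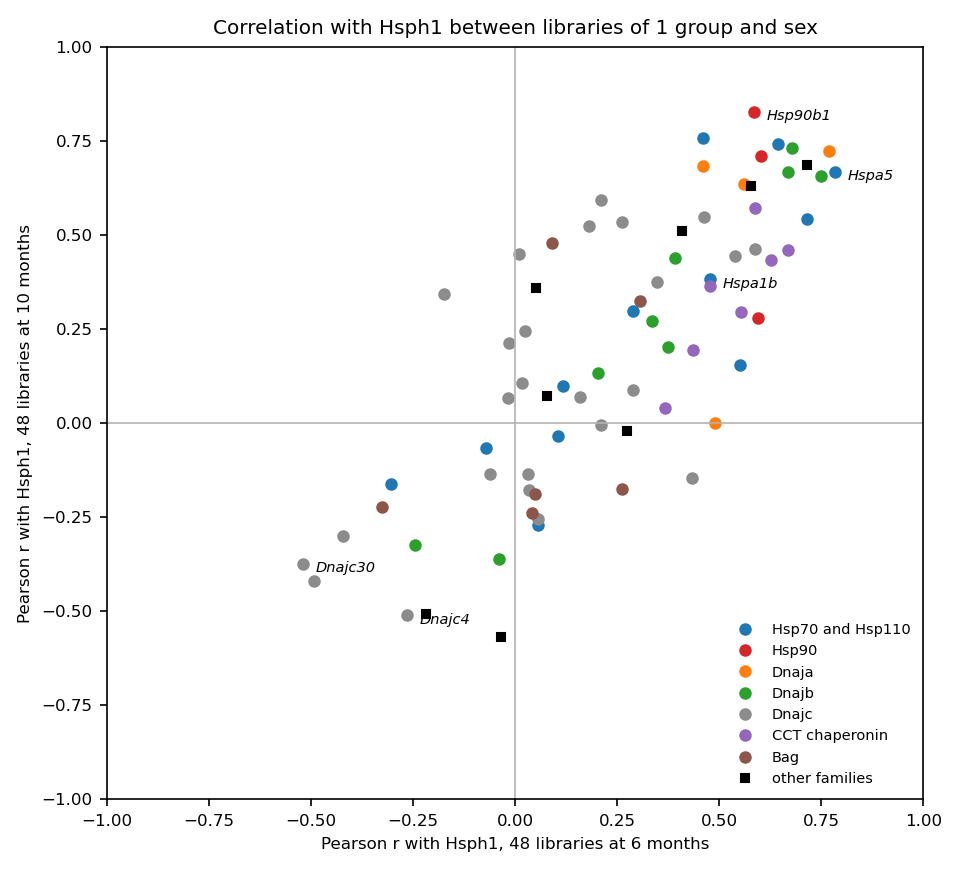
Pearson r with Hsph1 of each of the other 74 genes over the 48 libraries of 6 months (x axis) and of 10 months (y axis), after group and sex means were removed, coloured by family. Hsp90b1 (0.58 and 0.83) and Hspa5 (0.78 and 0.67) sit at the upper right, and Dnajc30 (-0.52 and -0.37) at the lower left.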

How the data were processed

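Messenger RNA of the striatum was measured in 96 libraries. The authors deposited expected counts per gene (estimated reads, not normalized; 27.7% of the values above 0 were not whole) for each library. The authors also deposited FPKM values, which they scaled by gene length and library depth. CASAVA 1.8.2 is named, per the submitters' processing notes; for the aligner, the quantifier, the build and the annotation, nothing is stated in the sources at hand. Counts were rounded to whole numbers and tested with edgeR 4.0.16 (quasi-likelihood test, TMM scaling, filterByExpr, R 4.3.3), with sex as a covariate, 1 fit of 48 libraries per age, and Benjamini-Hochberg adjustment over all genes tested at a threshold of 0.05. Printed CPM values are TMM-scaled over the 96 libraries. Alternatives used DESeq2 1.42.0 and limma 3.58.1 on log2(FPKM + 1) and log2(FPKM + 0.1). The fits were tested on simulated data with changes larger than most of those reported here, so smaller changes were not covered.

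The genes and lists were chosen with earlier results of these data known. Named genes were 22 chaperone genes and Htt whatever their values, the 10 smallest p-values among genes past the threshold with 1 direction in both sexes (Q140 and CAG slopes), 3 in each other comparison, the smallest p per family in Q140 mice, and up to 2 per list; other names, including those for sex in knock-ins and for covariation, were chosen after their values were seen. The knock-in sex fits and Hsph1 as the index of covariation were added after the data had been seen. Permutations for covariation shuffled libraries within group and sex. Replicate numbers in the labels did not pair samples. Gene positions are from GENCODE M21 (GRCm38).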

Additional observations from a re-analysis of the deposited data

Results flagged for a closer look

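Over 60 sets of 8 libraries (a named gene in a group), 4 had a library far from the others by Dixon's criterion at the 95% level, and chance alone flags about 1 in 20 such sets. The Q140 male 4 library at 10 months accounted for 3 of them. It had the highest Dnajc8 of its group at 79.6 CPM, where the other 7 had 65.9 to 69.4 CPM, and the highest Cct2 at 136 CPM, where the others had 118 to 125 CPM. Its Hspa13 was the lowest at 46.7 CPM, where the others had 56.4 to 64.3 CPM. The same library had the lowest Htt of its group at 129 CPM.

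Hspa1b had its highest value of the Q50-cohort wild types at 10 months in male 3, at 6.46 CPM against 1.31 to 2.95 CPM in the other 7. That library is 1 of the 16 with markers of other tissue.

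The Q140 log2 fold change of Cct3 differed between the ages by a test of the difference itself, 0.14 higher at 10 months than at 6 months. Of 10 thalamus markers 3 were lower at 10 months by that test, and the part of tissue make-up was not tested.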

How the results depend on the processing

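Over all alternatives, 153 counts of called genes stayed within 1.5 times the reported one and 36 did not; among single genes 3154 values kept direction and call, 158 lost the call, 46 gained one and 2 reversed. The reversed values were Hspa12a in Q140 mice at 10 months, 0.19 with the thalamus level as a covariate and 0.17 with thalamus and cortex levels, against -0.11 without; the cause was not tested. For Q140 at 6 months (16), females alone and males alone gave 7 each, from fewer samples. For Q140 at 10 months (15), each covariate fit gave 32, females alone 2, males alone 1 and Q50-cohort wild types as controls 9. For Q92 at 6 months (7), both covariate fits, males alone, Q20-cohort wild types and Q20 mice as controls gave 0, females alone 3 and the L number in the labels as a term 4. The slope at 6 months (11) gave 6 in females, 1 in males and 0 without Q140; at 10 months (15) it gave 9 with both levels as covariates, 1 in females, 2 in males, 8 with the L number and 0 without Q140. The age difference of Cct3 (1) gave 0 with RLE scaling, with either other filter and with the replicate block, and 2 with DESeq2. DESeq2 gave 2 for the wild-type cohorts at 6 months and 2 for wild-type sex (0 each in edgeR), and age in wild types (10) gave 4 without a filter. Sex gave 14 in knock-ins, 3 at 6 months, 8 at 10 months, 12 without other tissue, 17 with the thalamus covariate and 22 in all 96. Leaving out 1 library gave 13 to 19 genes at 6 months and 11 to 17 at 10 months in Q140 mice. The counts in this paragraph are given without the share of all genes in each fit.

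Same-numbered samples had a mean correlation of 0.032 at 6 months and 0.0054 at 10 months, so the numbers do not pair samples; with the replicate block Q140 mice gave 17 and 15 genes, the slopes 11 and 14, and age in wild types 8. No block was fitted to the sex comparisons.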
